A study of Mus musculus with 8 samples.

Results

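Interferon-signature cardiac macrophages were examined in single cells of the mouse left ventricle after a sham operation or ischemia–reperfusion (IR), in which a coronary artery is tied off and then released. They were defined by their own transcripts, so the values that chose them are a description and not a finding. A member was a barcode with at least 200 detected genes and at most 30% mitochondrial unique molecular identifiers (UMIs, each standing for 1 captured RNA molecule). C1qa, C1qb and C1qc, the complement genes of tissue macrophages, had to make up at least 0.2% of its UMIs, and the interferon-stimulated genes Isg15, Ifit2 and Ifit3 at least 0.15%. Cells with Lyve1, Folr2 and Timd4 at or above 0.1%, Lpl and Gdf15 at or above 0.1%, S100a8 and S100a9 at or above 1%, Dcn and Col3a1 at or above 0.15%, or more than 1 UMI of Cd79a and Cd3e were left out. A total of 689 of 19637 barcodes that passed the limits on genes and mitochondrial UMIs were members, 675 of them in the sham library and 14 in the IR library.

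The methods of the study describe male C57BL/6 mice of 10 to 12 weeks, with sham animals operated on alike but without the ligation, and no genotype other than the strain is given for these samples. Left ventricles were dissociated with enzymes 6 h afterwards, and 3 hearts were pooled in a suspension. The records list 4 samples of each group and give sham a time of 0 h and IR a time of 6 h. The deposited counts hold 1 matrix per group with no map from barcodes to samples, so each group was 1 library, condition and library cannot be told apart, and no test was run. Intervals are exact 95% intervals that cover counting error only. The sham library held 58653308 UMIs (median 4599.5 per barcode) and the IR library 75033226 (median 6244). The libraries shared 30 barcodes, of which 1 belonged to a sham member and 0 to IR members.

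Type I interferons are made when a cell senses foreign or misplaced nucleic acid through receptors such as MDA5 (Ifih1), RIG-I (Ddx58), cGAS and Toll-like receptors. Interferon-beta (Ifnb1) binds its receptor on the same and neighboring cells, the receptor-bound kinases activate transcription factors that act with IRF9 on the interferon-stimulated response element of target genes. The targets include antiviral effectors (Isg15, the Ifit, Oas and Mx families, Rsad2), antigen presentation genes and the sensors themselves, and Usp18 and Socs1 are feedback inhibitors among them. Macrophages with such a program have been described in the heart after infarction and in other tissues.

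The core of the response element was searched as GAAANNGAAA on both strands of RefSeq promoter windows (build GRCm38.p6), which run from 250 bases before to 50 bases after a transcription start. The motif GGGANNTTCC, a site of NF-kB, was searched in the same way. The stretches below are shown because they belong to genes on which the results turn, 5′ to 3′ along the strand of the gene, with motif matches in capitals. A match is a description and not a site of binding.
Isg15, chr4:156200855-156200916, minus strand: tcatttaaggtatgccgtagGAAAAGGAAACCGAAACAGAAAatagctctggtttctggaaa
Ifit3, chr19:34583353-34583436, plus strand: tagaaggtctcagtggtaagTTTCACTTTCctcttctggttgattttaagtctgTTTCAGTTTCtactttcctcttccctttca
Rsad2, chr12:26456543-26456592, minus strand: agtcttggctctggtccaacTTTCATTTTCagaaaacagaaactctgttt
Cxcl10, chr5:92349019-92349122, minus strand: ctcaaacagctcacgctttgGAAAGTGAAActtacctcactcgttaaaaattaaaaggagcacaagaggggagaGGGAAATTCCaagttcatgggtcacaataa
Ifnb1, chr4:88522881-88522930, minus strand: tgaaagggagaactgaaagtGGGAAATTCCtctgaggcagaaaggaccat
The window of Isg15, the ubiquitin-like modifier, held 3 overlapping response elements, the first starting at position -78 from the transcription start. The window of Ifit3 held 2 on the opposite strand, and that of Rsad2, which encodes viperin, 1. The window of Cxcl10, a chemokine for activated T cells, held 1 response element followed by 1 NF-kB match, whereas that of Ifnb1 held the NF-kB match alone. The windows of Ifit2, the other gene of the interferon criterion, held 0 response elements and 1 NF-kB match. The windows of Cd72, Irf7, Ccl12 and Fcgr1 held neither motif. GAAANNGAAA was found in 3.44% of all 32851 windows, and GGGANNTTCC in 1.47%.

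The members carried the transcripts of macrophages. In sham, Csf1r, the receptor for macrophage growth factors, had 773 UMIs per 1000000 UMIs of the members (CPM) and was found in 92.1% of them. Cd68 was found in 87.4% and Adgre1, which encodes F4/80, in 66.1%. Of the listed dendritic cell genes, Flt3 had 0 UMIs in the 675 sham members, and Cd209a and Siglech had 2 each. Of all 16 listed genes, 4 passed the floor of the comparison given below. Mmp8 and Cd8a had 0 UMIs. Cd3e had 2 UMIs, but the criteria limited this gene, so its low count is no finding. S100a9, a neutrophil gene that the criteria also limited, was found in 66 members. Of the 5 marker genes named for these cells, C1qa was found in 99.7% of sham members, Isg15 in 98.2%, Ifit3 in 90.7% and Cd72 in 85.8%, whereas Ifnb1 was found in 12.4%. Sham members had a median of 4792 UMIs and 1604 genes, and IR members 8815.5 UMIs.

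The interferon criterion cut a continuous range. Among sham C1q macrophages that met all other criteria, 35.3% of 2290 cells had no UMI of Isg15, Ifit2 or Ifit3, 8.47% lay between 0.10 and 0.15% and 6.99% between 0.15 and 0.20%, without a gap at the threshold. The 20 sham members nearest to it had 0.151 to 0.157%, which was 1 to 17 UMIs of the 3 genes. The 20 cells just below it had 0.1442 to 0.1498%, or 1 to 13 UMIs. The median sham member had 0.283% and the highest 1.38%. In IR the same population of 384 cells had no such UMI in 69.0%.

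**Figure D1:**
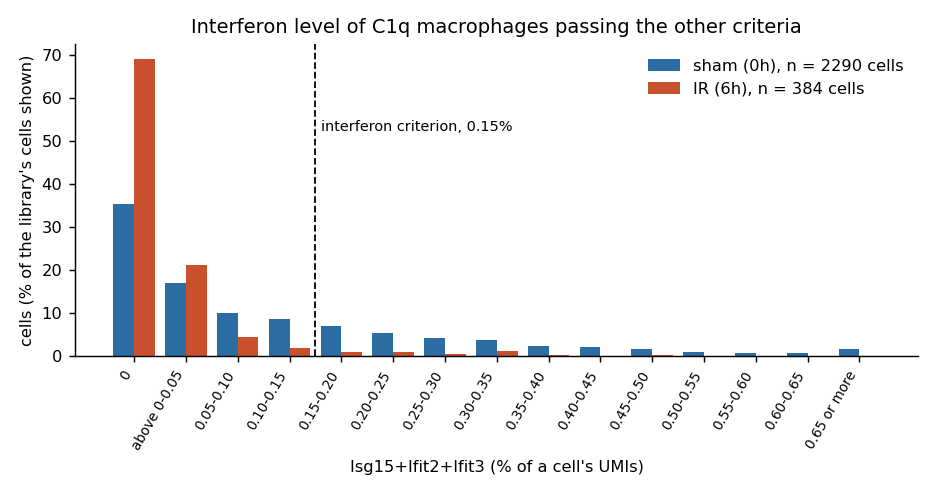
Share of C1q macrophages by the summed Isg15, Ifit2 and Ifit3 share of their UMIs, in percent, for 2290 sham (blue) and 384 IR (orange) cells that met all other criteria; the dashed line marks the 0.15% criterion. Cells above the line are the members, and the sham distribution falls off without a gap there.

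Members made up 5.93% of sham barcodes (95% interval 5.51 to 6.38) and 0.169% of IR barcodes (0.0927 to 0.284). As a share of all C1q macrophages they were 18.3% in sham (675 of 3692, 17.0 to 19.6) and 1.24% in IR (14 of 1126, 0.681 to 2.08). The interferon criterion alone was met by 26.1% of sham and 2.58% of IR C1q macrophages. The Lyve1, Folr2 and Timd4 criterion excluded 28.4% and 29.4%, and the Lpl and Gdf15 criterion 4.90% and 39.5%. With cells thinned to 2000 UMIs, and shallower cells left out, the members were 18.6% of C1q macrophages in sham (653 of 3520) and 0.676% in IR (7 of 1035, 0.272 to 1.39). Another random draw, made before any criterion was applied, gave 656 of 3524 cells in sham and 11 of 1046 in IR, so the IR share at this depth rests on few cells.

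The higher level of interferon genes in the sham library was also seen outside macrophages. The criterion on Isg15, Ifit2 and Ifit3 was met by 64.3% of sham neutrophils (7.61% in IR), 56.6% of endothelial cells (3.96%), 39.5% of monocytes (0.987%), 22.6% of fibroblasts (0.660%) and 9.55% of B cells (0.551%). The summed level of 71 other type I interferon-stimulated genes was 3.85-fold higher in sham than in IR neutrophils, 3.64-fold higher in fibroblasts, 3.36-fold in monocytes, 3.04-fold in B cells and 2.54-fold in C1q macrophages below the criterion. In members, where the criterion fixed the level of 3 such genes in both libraries, the sum was 38443 CPM in sham and 44627 CPM in IR, a ratio of 0.861. The part that this library-wide difference has in the lower share of members in IR was not tested.

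**Figure D2:**
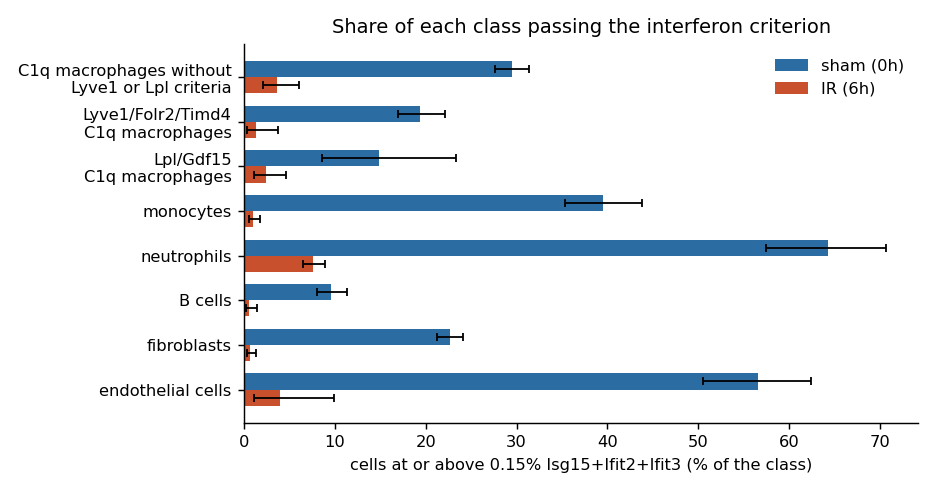
Share of cells of each class, in percent, with Isg15, Ifit2 and Ifit3 at or above 0.15% of UMIs in sham (blue) and IR (orange), with exact 95% binomial intervals for counting error. The sham bar is longer in all 8 classes, from 9.55% of B cells to 64.3% of neutrophils.

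The closest class for comparison was 1615 sham C1q macrophages that met every criterion except the interferon criterion (ISG-low macrophages). The contrast is the one that chose the members, so its ratios are a description. The level of a gene was its UMIs summed over the class, in CPM, and genes with at least 20 CPM and 20 UMIs in the higher class were compared. Of 5117 genes, 4.05% were at least 2-fold higher in members and 1.86% at least 2-fold lower, which is 207 and 95 genes. The median log2 ratio over all of them was -0.02. Members were higher in most interferon-stimulated genes, in several class I antigen presentation genes and in mitotic genes, and they were lower in the lysozyme gene Lyz2 and in several monocyte genes.

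Of 67 interferon-stimulated genes outside the criteria that passed the floor, 58 were at least 2-fold higher in members and 0 lower, with a median log2 ratio of 1.41. The largest ratio was that of Ifit3b, at 175 against 23.8 CPM (log2 ratio 2.88, 2.64 to 3.12), a near-identical neighbor of Ifit3 whose reads cannot be fully told apart from those of a gene used for the choice. Cmpk2, a mitochondrial nucleotide kinase, was at 74.98 against 11.4 CPM (log2 ratio 2.72). Rsad2 was at 332 against 55.2 CPM (log2 ratio 2.59, 2.43 to 2.75). Rsad2 was found in 390 members and 230 ISG-low macrophages, and no single member held more than 6.202% of its UMIs. Ifit1, which binds uncapped viral RNA, was at 223 against 38.5 CPM, Iigp1, an interferon-inducible GTPase, at 93.6 against 17.7 CPM, and the antiviral GTPase Mx1 at 155 against 30.6 CPM. Pydc3 (107.7 against 17.2 CPM), Ifi44 (30.2 against 5.005 CPM), Oasl1 (142 against 27.5 CPM) and the guanylate-binding protein gene Gbp4 (22.5 against 4.76 CPM) were also among the 15 largest ratios.

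The abundant genes of the program differed by less. Ifi27l2a was at 8287 CPM in members and 4632 CPM in ISG-low macrophages (log2 ratio 0.84), and Ifitm3, which restricts viral entry, at 7266 and 4131 CPM (0.81). Bst2, the tetherin gene, was at 3113 and 1202 CPM (1.37), and Ly6e at 2736 and 1181 CPM (1.21). Irf7, the transcription factor that amplifies interferon production, was at 740 and 213 CPM (1.80). In single cells Irf7 had a median of 6.87 UMIs per 10000 in members, with a range of 0 to 46.5, against a median of 0 and a range of 0 to 38.4 in ISG-low macrophages. The distributions overlapped for Irf7, and a member with 0 UMIs occurred. Slfn4 (0.03), Slfn2 (0.17) and Irf9 (0.31) were the genes of the list with the smallest log2 ratios.

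**Figure D3:**
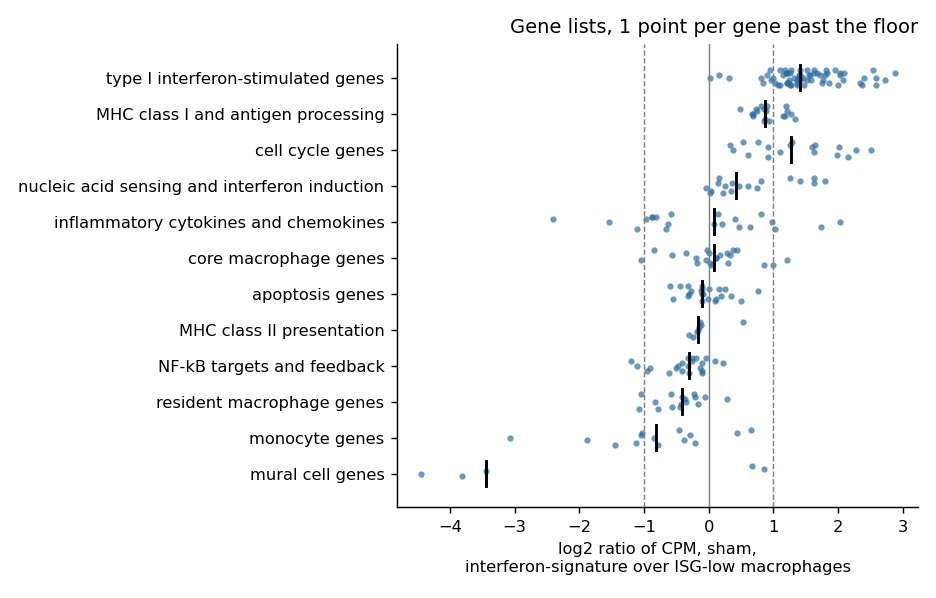
Log2 ratio of CPM in sham interferon-signature macrophages over sham ISG-low macrophages, 1 point per gene that passed the floor, for 12 gene lists; black bars are list medians and dashed lines mark 2-fold. The interferon-stimulated list has its median at 1.41 and MHC class II at -0.16.

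Among 203 genes at least 2-fold higher and outside the criteria, 154 had a promoter window. Of these genes 30.5% held the response element core in a window, against 5.03% of 3996 genes past the floor. A gene with several windows counted if any of them matched, so the 3.44% of all windows is on another scale. Of 63 2-fold lower genes with a window 11.1% held it. It was found for 46.4% of 56 genes of the interferon-stimulated list and 0 of 19 genes of the cell cycle list. The NF-kB motif was found for 5.19% of the higher genes (8 of 154) and 1.59% of the lower genes (1 of 63). Among all genes past the floor it was found for 80 of 3996. The elements printed above for Rsad2 and Cxcl10 are examples from the higher genes.

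Genes upstream of the response differed unevenly. Of 18 genes of nucleic acid sensing and interferon induction that passed the floor, 5 were at least 2-fold higher in members and 0 lower (median log2 ratio 0.42). The 5 were Irf7, Dhx58, Zbp1, Ddx58 and Ifih1, all of which are also on the interferon-stimulated list. Ifih1, which encodes the double-stranded RNA sensor MDA5, was at 103 against 43.0 CPM (log2 ratio 1.26). The adaptor and kinase genes Tmem173, which encodes STING, Tbk1 and Irf3 had log2 ratios of -0.05, 0.04 and 0.02. Of 13 genes of interferons, receptors and signaling, 5 were higher and 1 lower. The receptor chains Ifnar1 (-0.20) and Ifnar2 (0.02) and the kinase Jak1 (-0.24) were within 2-fold, whereas Stat2 was at 79.8 against 30.8 CPM (1.37) and the feedback genes Usp18 at 178 against 52.5 CPM (1.76) and Socs1 at 44.0 against 14.6 CPM (1.59). Socs3, an inhibitor of cytokine signaling through gp130, was the 1 lower gene, at 409 against 960 CPM (-1.23).

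Antigen presentation divided by class. Of 19 class I and antigen processing genes, 6 were at least 2-fold higher and 0 lower, with a median log2 ratio of 0.87. H2-T22 (1.34), H2-Q6 (1.28), Tap1, the peptide transporter (1.21), the immunoproteasome subunit Psmb9 (1.19), the class I regulator Nlrc5 (1.18) and H2-Q7 (1.15) were the 6. The abundant heavy chain gene H2-K1 was at 3086 against 1651 CPM and B2m, the class I light chain, at 4032 against 2223 CPM. In contrast, 0 of 8 class II genes passed 2-fold (median -0.16), and Cd74, the invariant chain, was at 19147 against 23493 CPM (-0.30). H2-family genes are close paralogs, and reads can be split among them.

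Cd72, a receptor with an inhibitory motif that is known from B cells, was at 815 against 311 CPM (log2 ratio 1.39, 1.32 to 1.47). In single cells it had a median of 6.92 UMIs per 10000 in members (0 to 40.9) and 1.47 in ISG-low macrophages (0 to 36.9), so most members were above most ISG-low cells although the ranges overlapped. Of 16 costimulation and surface activation genes, 5 were higher and 2 lower. The early activation antigen Cd69 was at 55.8 against 11.7 CPM (2.25). Cd40 was at 46.8 against 20.02 CPM, and the Fc receptor genes Fcgr1 and Fcgr4 were at 788 against 341 CPM and 383 against 186 CPM. The C-type lectin genes Clec4e (18.0 against 54.4 CPM) and Clec4n (60.9 against 130 CPM) were the lower genes.

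Chemokine genes differed in both directions. Of 21 inflammatory cytokine and chemokine genes, 3 were at least 2-fold higher and 3 lower. The higher genes were Cxcl10, at 1355 against 333 CPM (log2 ratio 2.02), Ccl12, a CCR2 ligand, at 3988 against 1193 CPM (1.74), and Ccl4, a macrophage inflammatory protein gene, at 5812 against 2854 CPM (1.03). Cxcl10 was found in 363 of 675 members, with a single-cell median of 1.98 and a maximum of 231 UMIs per 10000. The lower genes were Cxcl3 (3.95 against 20.9 CPM), Tnfsf9 (63.1 against 184 CPM) and Ccl24 (34.1 against 73.2 CPM). Il1b was at 1304 against 2292 CPM (-0.81) and the neutrophil chemokine Cxcl2 at 4193 against 7730 CPM (-0.88), both within 2-fold. Of 22 NF-kB target and feedback genes, 0 were higher and 2 lower (median -0.31), namely Ier3 (-1.20) and Tnfaip2 (-1.10). Of 31 immediate-early and heat-shock genes, 0 were higher and 4 lower, namely Hsph1 (-1.33), Ier3, Dusp5 (-1.20) and Fosl2 (-1.06).

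Macrophage identity genes mostly stayed within 2-fold. Of 22 core macrophage genes 2 were higher and 1 lower, with Csf1r at 773 against 766 CPM and Adgre1 at 293 against 300 CPM. The lower gene was Lyz2, at 7510 against 15554 CPM (-1.05), and its single-cell medians were 50.4 and 136 UMIs per 10000. Fcgr1 was among the higher genes. Of 16 genes of resident macrophages outside the criteria, 0 were higher and 2 lower (Fcna and Ltc4s), and of 14 efferocytosis genes and 23 apoptosis genes 0 passed 2-fold in either direction. Of 14 monocyte genes 0 were higher and 6 lower (median -0.82), among them Thbs1 (-1.45), Hp (-1.88) and Fn1 (-1.03). Ly6c2 (0.66) and Ccr2 (0.44) pointed the other way within 2-fold. Among members, the 7 cells with the most UMIs held 94.9% of those of Fn1 and 68.6% of those of Ly6c2.

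Several of the lowest ratios rested on few cells. Myh11, Tagln, Myl9 and Acta2, contractile genes of smooth muscle, had log2 ratios of -4.45, -3.81, -3.48 and -3.44. Without 17 ISG-low macrophages and 2 members that carried at least 0.1% of these transcripts, an alternative chosen after seeing the data, the ratios turned to 0.67, 0.28, 0.50 and 0.26. Chil3, a chitinase-like gene of monocytes, was at 3.66 against 30.6 CPM and rested on 6 members and 21 ISG-low macrophages, and it turned to 0.60 without cells carrying monocyte genes. Retnla, an alternative activation gene, was at 58.9 against 305 CPM, with 54.5% of its UMIs in members from 1 cell. In contrast, Ifi27 was at 18.9 against 105.6 CPM (-2.48) and was found in 59 of 675 members and 537 of 1615 ISG-low macrophages, which makes it the broadest of the 10 lowest genes. The metallothionein gene Mt2 (13.8 against 71.5 CPM), the actin crosslinker Actn1 (3.95 against 22.1 CPM) and Cxcl3 completed the 10.

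Most markers of other cell types were low in both classes. Of the genes that passed the floor, 0 of 4 fibroblast, 0 of 7 cardiomyocyte, 0 of 2 endothelial and 0 of 4 hemoglobin genes differed 2-fold. The summed fibroblast list was 623 CPM in members and 506 CPM in ISG-low macrophages, and the summed cardiomyocyte list 169 and 210 CPM. Of 4 dendritic cell genes that passed the floor 2 were higher, Bst2 and Ifi205, both of which are interferon-stimulated genes as well. The other 2 were within 2-fold, and the intervals of all 4 ratios lay above 0. The summed dendritic cell list, which includes Bst2, was 3367 CPM in members and 1402 CPM in ISG-low macrophages. Barcodes with the highest simulated-doublet scores made up 6.52% of sham members and 8.30% of sham ISG-low macrophages. The median score pointed the other way, at 0.267 in sham members and 0.183 in sham ISG-low macrophages. In IR, 0 of 14 members were among the highest scores, but their median was 0.533, against 0.267 in IR ISG-low macrophages.

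Mitotic genes were the other group that was higher in members. Of 18 cell cycle genes 11 were at least 2-fold higher and 0 lower, with a median log2 ratio of 1.27. The spindle genes Cenpe (22.3 against 3.91 CPM) and Nusap1 (27.1 against 4.76 CPM) and the cyclin gene Ccnb2 (38.6 against 7.93 CPM) were among the 15 largest ratios, and Mki67 was at 50.5 against 20.6 CPM (1.29). Nusap1 was found in 32 members and 20 ISG-low macrophages. With each cell thinned to 2000 UMIs, 33 of 635 members (5.20%, 3.604 to 7.22) and 18 of 1537 ISG-low macrophages (1.17%, 0.696 to 1.84) had at least 3 of 11 mitotic genes. The share was 0.546% (5 of 915) in Lyve1/Folr2/Timd4 macrophages. An alternative chosen after seeing the data left out cells with at least 3 of the 11 mitotic genes in unthinned counts. It kept 630 members and 1577 ISG-low macrophages. The log2 ratios of Cenpe, Ccnb2 and Nusap1 were then 1.47, 0.94 and 0.30, and 201 genes were at least 2-fold higher in members and 96 lower.

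Because the interferon level was continuous, sham C1q macrophages that met the other criteria were thinned to 2000 UMIs each and divided by their UMIs of Isg15, Ifit2 and Ifit3. The tiers held 983 cells with 0 UMIs, 315 with 1, 172 with 2, 270 with 3 to 4, 322 with 5 to 9 and 110 with 10 or more. The median number of the 71 other interferon-stimulated genes detected was 9 in the lowest tier and 29.5 in the highest. Irf7 was at 69.2, 316, 430, 593, 727 and 982 CPM over the 6 tiers. Cxcl10 went from 213 CPM in the lowest tier to 2445 in the highest and Ccl12 from 972 to 5705 CPM, and both were higher in each tier than in the one below. Cd72 instead levelled off, with 192, 370 and 657 CPM in the first tiers and then 765, 859 and 755 CPM, and the intervals of the last 3 tiers overlapped.

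Other genes ran against the interferon level. Lyz2 was at 16545 CPM in the lowest tier and 6764 CPM in the highest, Cxcl2 at 8792 and 3700 CPM, Il1b at 2766 and 1200 CPM and Socs3 at 1123 and 273 CPM. Lyz2 and Socs3 were lower in each tier than in the tier before. Identity genes showed no such order, with Adgre1 at 295 CPM in the lowest and 282 CPM in the highest tier, Mertk at 27.0 and 31.8 CPM, and Atf3 at 1261 and 1309 CPM, with overlapping intervals for each. The summed cell cycle list was at 734 CPM in cells with 0 UMIs and at 1532, 1661, 1486 and 1395 CPM in the 4 upper tiers. Tiers share a library, and the order is a description over cells of 1 pool.

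**Figure D4:**
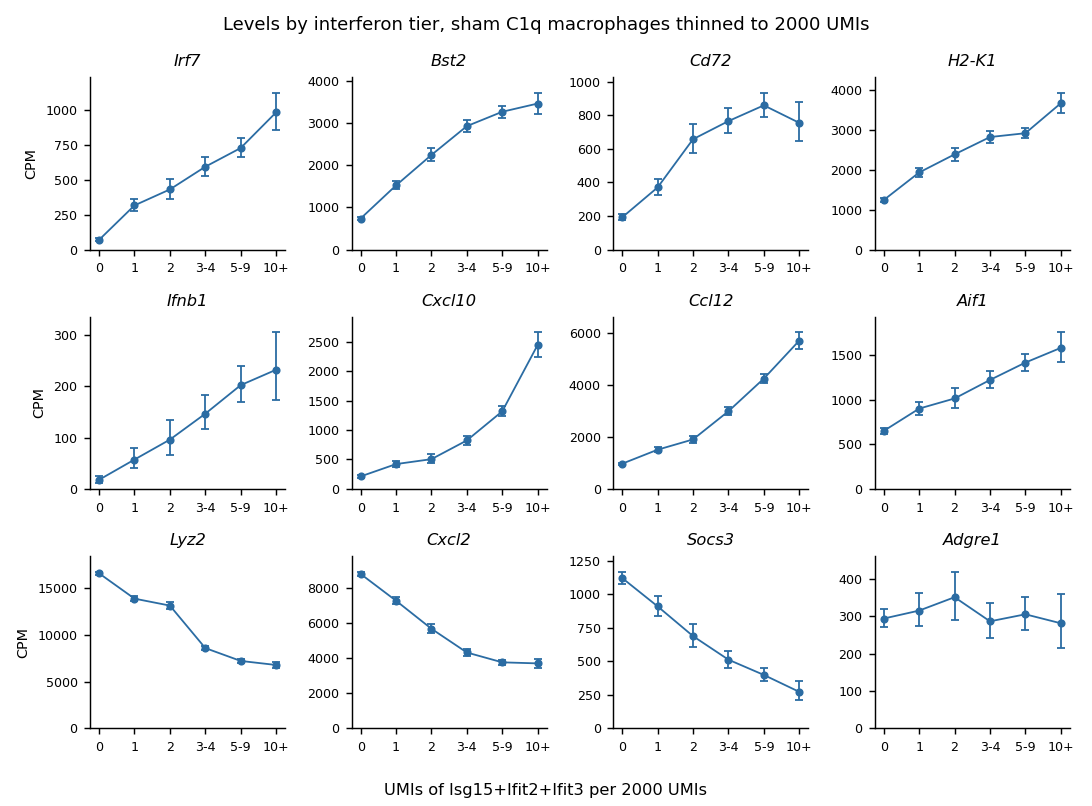
Levels of 12 genes, in CPM, in sham C1q macrophages thinned to 2000 UMIs and grouped by their UMIs of Isg15, Ifit2 and Ifit3; error bars are exact 95% Poisson intervals. Irf7 and Cxcl10 are higher at each step, Cd72 levels off from 3 UMIs on, Lyz2 and Socs3 are lower at each step and Adgre1 lies between 282 and 352 CPM.

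Ifnb1 was concentrated in these cells. Members were 5.93% of sham barcodes and held 643 of 1133 Ifnb1 UMIs (56.8%), ISG-low macrophages held 27.4%, and all C1q macrophages together 96.7%. The level was 181 CPM in members (167 to 196), 38.0 in ISG-low, 14.3 in Lyve1/Folr2/Timd4 and 5.68 CPM in Lpl/Gdf15 macrophages. With each cell thinned to 1000 UMIs, an Ifnb1 UMI was found in 7.46% of members (49 of 657, 5.57 to 9.74) and 2.02% of ISG-low macrophages. Over the 6 tiers Ifnb1 was at 17.8, 57.1, 95.9, 146, 202 and 232 CPM. B cells, which stand for free RNA here, had it in 0.0818% (1 of 1222, with a median of 2382 UMIs before thinning), and fibroblasts in 0 of 3409, so that at this depth the upper limit of the share was 0.108%. Without thinning the shares were 12.4% of members and 0.486% of B cells, so the share in members was above the background at either depth.

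Few members carried most of the Ifnb1 UMIs. It was found in 84 of 675 sham members, the 20 cells with the most UMIs held 66.7% of the members' total, and the highest cell had 47 UMIs. Isg15 was spread more evenly, with 9.96% of its UMIs in its top 20 cells. In IR, 152 Ifnb1 UMIs were counted in all, 50 of them in monocytes (32.9%) and 5 in members, in 3 of 14 cells. These counts are too few to compare the libraries.

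Members with and without an Ifnb1 UMI were set side by side at 2000 UMIs per cell (58 and 577 cells in this draw). Of 1570 genes past the floor 8 were at least 2-fold higher in the Ifnb1-positive members and 171 lower. The median log2 ratio of all of them was -0.30. The floor on UMIs needs a higher CPM in 58 cells than in 577. These counts and the median therefore lean to the lower side by construction. The summed list ratios below use all genes of a list, without the floor, and are not read relative to that median. Both groups had met the interferon criterion, which limits how far their interferon genes can differ. Within this selected range the summed interferon-stimulated list had a log2 ratio of -0.18 (-0.23 to -0.14). Irf7 was at 724 against 748 CPM and Cd72 at 853 against 795 CPM, and the intervals of both ratios included 0. Over the tiers, which the criterion did not limit, Ifnb1 was higher with the interferon level, as given above. Inflammatory genes had a summed log2 ratio of 0.68 (0.63 to 0.73) for cytokines and chemokines and 0.36 (0.25 to 0.46) for NF-kB targets. The class II sum was at 0.40. The largest ratios were those of the neutrophil chemokine Cxcl1 (1.70), Ppp1r15a, a stress-induced phosphatase subunit (1.54), Ccl4 (13560 against 5090 CPM, 1.41), Rgs1, a regulator of G-protein signaling (1.23), Cxcl10 (1.14), Tnf (698 against 327 CPM) and Ccl3 (1.03). The NF-kB motif printed above lies in the Ifnb1 window, and what it does in these cells was not measured.

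**Figure D5:**
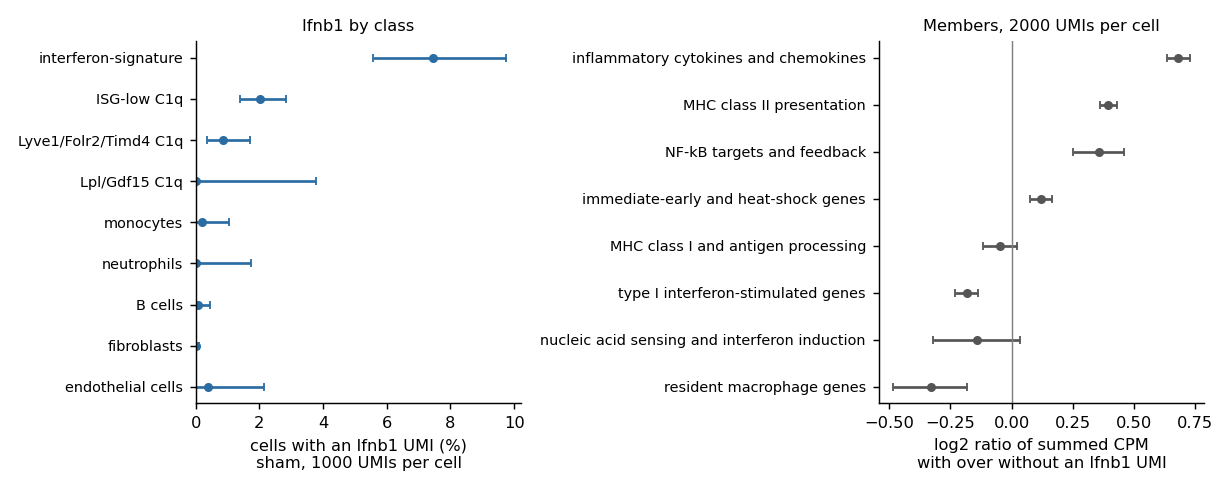
Left, share of cells with an Ifnb1 UMI in 9 sham classes at 1000 UMIs per cell, in percent with exact 95% binomial intervals. Right, log2 ratio of summed CPM of 8 gene lists in 58 sham members with over 577 without an Ifnb1 UMI, at 2000 UMIs per cell, with exact 95% intervals; cytokines and chemokines are at 0.68 and interferon-stimulated genes at -0.18.

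Members were not uniform. The variance of each gene over sham members was divided by that of a Poisson count, for 2385 genes with at least 50 CPM. The median ratio was 1.18, and 336 genes had a ratio of 2 or more. The 10 highest were Hbb-bs, Hba-a1 and Hba-a2, Slpi, Fn1, Lyz2, Retnla, Prg4, Fabp4 and Cd74. For the hemoglobin gene Hbb-bs, 74.1% of UMIs came from 1 cell. Slpi, a protease inhibitor, was found in 16 members, Fn1, fibronectin, in 28, Prg4, lubricin, in 6 and Retnla in 19, and 4 of the 6 cells with Prg4 were among the 5 with Alox15, a lipoxygenase of peritoneal macrophages. Lyz2 and Cd74 varied instead across nearly all cells, since they were found in 97.6% and 97.0% of members.

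Class II level varied widely among members. The class II genes made up a median of 4.67% of a sham member's UMIs, with a range of 0 to 19.7%, and 79.0% of members had at least 1%, against 84.8% of ISG-low macrophages. Over 635 members thinned to 2000 UMIs the class II sum and the interferon-stimulated sum had a Pearson correlation of -0.19, a weak relation between shares of 1 total. Monocyte genes (Ly6c2, Ccr2 and Plac8) reached 0.1% of UMIs in 5.19% of members and 3.72% of ISG-low macrophages.

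Against 938 sham Lyve1/Folr2/Timd4 macrophages, the resident class that the criteria set aside, 5257 genes were compared. Of these 5.08% were at least 2-fold higher in members (267) and 4.79% at least 2-fold lower (252). Of 67 interferon-stimulated genes 36 were higher and 0 lower, with a median log2 ratio of 1.05. The smaller median than against ISG-low macrophages goes with the interferon level of the resident class, which its criteria did not limit: 19.4% of its cells met the interferon criterion. Of 8 class II genes 6 were higher (median 1.34), with H2-Eb1 at 8047 against 2494 CPM and H2-Ab1 at 8319 against 2812 CPM. Of 17 resident genes outside the criteria 15 were lower (median -1.57). They included the scavenger receptor gene Cd163 (57.2 against 288 CPM), the coagulation factor gene F13a1 (128 against 1019 CPM) and Gas6, a ligand of MerTK and AXL (126 against 443 CPM). Axl itself was at 276 against 117 CPM (1.24).

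Of 21 cytokine and chemokine genes 7 were higher and 7 lower than in the resident class, with a median log2 ratio of -0.12. Il1b was at 1304 against 400 CPM (1.71), Ccl4 at 5812 against 1446 CPM (2.01) and Tnf at 387 against 166 CPM (1.22), while Ccl8 (24.0 against 193 CPM) and Ccl24 (34.1 against 312 CPM), chemokines of alternatively activated macrophages, were lower. Of 18 cell cycle genes 12 were higher (median 2.16). Of the 10 largest ratios, Alox15 (51.02 against 0.362 CPM) was found in 5 members, Slpi in 16, Saa3 in 10 and Ly6i in 13, and Ly6c2 (173 against 3.799 CPM), Mmp12, Cdc20, Cdca3 and Ifi44 in 22 to 49 members. Tmem119 (42.8 against 2.35 CPM), known as a marker of microglia, was found in 98 members and 13 resident macrophages. The lowest ratio was that of Vsig4, a complement receptor (2.82 against 104 CPM), with all 10 UMIs of the members in 1 cell, followed by Ccl21a, with 3 UMIs in members and UMIs in 4 resident cells, which belongs to a group of near-identical genes. Retnla was at 58.9 against 1330 CPM, and the low ratio of Myh11 turned to 0.26 without cells carrying smooth-muscle genes. Colec12, Emp1, Ltc4s, Fcna, Tfrc and Mrvi1 were 10.7- to 12.4-fold lower. All 4 hemoglobin genes were higher in members (738 against 181 CPM in sum), with 70.5 to 74.1% of the members' UMIs of each from 1 cell.

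Ifnb1 and Ifih1, which the study followed, were over 2-fold higher in members than in ISG-low macrophages, with log2 ratios of 2.26 and 1.26. Ifit1, also measured in the study, was higher as given above, and Ifit2 and Ifit3 were genes of the criteria. Atf3, Mertk, Apaf1, Ccr2, Cx3cr1 and Trem2 were within 2-fold. Atf3, the stress-induced repressor, was at 1305 CPM (1267 to 1343) in members and 1180 CPM in ISG-low macrophages, with single-cell medians of 10.5 and 9.36 UMIs per 10000. Mertk, the efferocytosis receptor, was at 30.7 (25.2 to 37.1) and 28.3 CPM, and Apaf1, the apoptosome scaffold, at 19.2 and 26.0 CPM. The chemokine receptor gene Ccr2 was at 94.7 and 69.8 CPM, Cx3cr1 at 302 and 222 CPM, and Trem2 at 88.2 and 100.5 CPM. In the 14 IR members Atf3 was at 1017 CPM (853 to 1203, 10 cells), Ifih1 at 284 CPM (201 to 390, 10 cells) and Cd72 at 105 CPM (57.2 to 176, 5 cells). Mertk (5 UMIs), Apaf1 (4 UMIs), Ccr2 (10 UMIs), Cx3cr1 (6 UMIs) and Trem2 (13 UMIs) were counted in 2 to 5 of these cells.

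The 14 IR members were compared with 340 Lpl/Gdf15 macrophages of IR, the class that was 101 cells in sham. Of 3740 genes 4.76% were at least 2-fold higher in members (178) and 22.9% at least 2-fold lower (857). The median log2 ratio of all genes was -0.45. In the 14 members the floor of 20 UMIs is about 150 CPM, so a gene needed that level to enter as higher. A lower gene needed 20 CPM in the other class, so the counts and the median lean to the lower side by construction. Scaled to a median of 0, 268 genes were higher and 482 lower. Of 57 interferon-stimulated genes 55 were higher and 0 lower (median 2.79). Rsad2 was at 3170 against 91.7 CPM and was found in 12 of 14 members and 46 of 340 Lpl/Gdf15 macrophages. Cxcl10 was at 11402 against 679 CPM, in 13 of 14 members. Single members carried other large ratios, with 95.3% of Cxcl9 UMIs, 84.8% of Inhba UMIs and 51.5% of Iigp1 UMIs from 1 cell. Pydc3, Cmpk2, Ifit1, Phf11a and Vegfa completed the 10 largest ratios. Ccl5, a chemokine on the list of T and NK cells, was at 621 against 107 CPM in 3 members, and Cd3e and Nkg7 had 0 UMIs there. Of 13 class I genes 9 were higher and of 7 class II genes 0 passed 2-fold. The lowest ratios (Chka, Dkc1, Lap3, Slc25a11, Cd163, Fabp4, Apex1, Slco2b1, Znrf2 and Caprin1) rested on 1 to 4 UMIs in members, with a log2 ratio of -3.50 (-5.78 to -1.94) for Chka.

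Between the libraries, 3394 genes were compared in members. Of these 7.81% were at least 2-fold higher in IR (265) and 29.0% at least 2-fold lower (983), with a median log2 ratio of -0.54. The floor of 20 UMIs in the 14 IR members makes these counts and the median lean to the lower side here too. The library, the depth and the time cannot be told apart from the operation. Scaled to a median of 0, 422 genes were higher and 554 lower. Of 63 interferon-stimulated genes 20 were higher and 5 lower in IR (median 0.53), and this median turned to -0.72 with cells thinned before the criteria and to -0.23 with a floor of 50 CPM. Of 25 cytokine and chemokine genes 20 were higher in IR and 0 lower (median 2.21), and of 14 NF-kB genes 7 were higher. Cxcl2 had a single-cell median of 186 UMIs per 10000 in the 14 IR members (1.28 to 384) and 19.4 in sham members (0 to 364). Cxcl10 had medians of 60.1 and 1.98, and Il1b of 14.9 and 2.94. The ranges of all 3 genes overlapped.

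Class II and cell cycle genes were lower in the IR members. Of 8 class II genes 7 were at least 2-fold lower (median -1.39), with Cd74 at 8164 against 19147 CPM and single-cell medians of 57.3 and 201 UMIs per 10000. H2-K1 had medians of 10.2 and 29.3. C1qa, which the criteria held to a lower limit together with C1qb and C1qc, had 19.8 (2.56 to 92.8) and 89.0 (0 to 209). The summed share of these 3 genes had a median of 0.602% in IR and 2.46% in sham members. Isg15, which the criteria fixed, had medians of 15.8 and 17.7. Of 18 class I genes 6 were lower (median -0.70), a share near the 29.0% of all genes. Of 17 cell cycle genes 10 were lower and 0 higher. The median mitochondrial share was 6.31% in IR and 2.83% in sham members. The largest ratios again rested on few cells. Ccl17 was found in 2 of 14 IR members, Vegfa in 3, Inhba in 3, Arg1 in 1, Cish in 4 and Cxcl3 in 8 with 85.7% of UMIs from 1 cell, whereas Il1rn, the interleukin-1 receptor antagonist, was in 11 of 14 members against 27 of 675 sham members, and Il1a in 7 against 10. AA467197 (5 members) and Cxcl9 (2 members) completed the 10. Plac8, Gm20186, Pld4, Rnaset2b, Smagp, Ppfia4, Nucb1, Stmn1, Rgs5 and Cnp had the lowest ratios, on 0 to 4 UMIs in IR, and the ratio of Pld4, a lysosomal nuclease, was -3.91 (-5.79 to -2.55).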

How the data were processed

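Left ventricular cells were profiled by droplet-based single-cell RNA sequencing (10x Chromium, 3′ version 2 chemistry). The authors aligned reads to mm10 with Cell Ranger (3.1.0 in the headers of the deposited matrices) and deposited 1 matrix of raw UMI counts for each group, with genes as rows and barcodes as columns. The counts were used as deposited. Members and gene lists were chosen with earlier results of these data known. UMIs were summed over a class and scaled to 1000000 (CPM), ratios are log2 ratios with exact conditional intervals, and a gene without UMIs entered a bound with 3 UMIs. Genes with at least 20 CPM and 20 UMIs in the higher class were compared and counted past 2-fold. There was 1 library in each group, so no p-value was computed. Named genes were those of the criteria, the 15 largest and 10 smallest ratios against ISG-low macrophages, the 10 largest and 10 smallest in the other comparisons (without mitochondrial and hemoglobin genes), the most abundant and most different genes of each list, and genes of the study. Further genes, and the genes followed over tiers, were chosen after their values were seen. Doublets were limited by the criteria only, and an alternative removed the highest simulated-doublet scores (9.29% of sham and 6.83% of IR barcodes). Shares of sparse genes were taken after thinning each cell to 1000 UMIs. Alternatives changed the limits on genes and mitochondrial UMIs, the criteria, the weighting of cells, the scaling and the floor. The ratio code was tested on simulated data. Promoter windows are from RefSeq (GRCm38.p6, the build that mm10 is). Python 3.11.15, numpy 2.4.6, scipy 1.17.1, pandas 2.3.3, scikit-learn 1.9.0 and matplotlib 3.10.9 were used. Some genes that the rule would name are not reported here.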

Additional observations from a re-analysis of the deposited data

How the results depend on the processing

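Of 2375 values of single genes and list medians under an alternative, 1848 lay within the 95% counting interval of the reported value (for a list, the median of its genes' intervals). A further 501 lay outside it. The other 26, list medians or genes past 2-fold in the main setting, changed sign or went to 0. Changes of sign in genes within 2-fold were not counted apart. Settings that changed only the floor cannot move the ratio of a single gene, and they gave 174 and 175 of the 1848. The interferon-stimulated list kept a median log2 ratio of 1.32 to 1.56 against ISG-low macrophages under all 15 alternatives run for it. No paired analysis was possible because the cells carry no sample number and each group is 1 matrix. With 1 library in each group no replicate could be left out, and the counts of 14 IR members limit every IR value.

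With an interferon criterion of 0.1%, members were 7.64% of sham barcodes and 23.5% of sham C1q macrophages, and 58 genes were lower against ISG-low macrophages. With 0.3% they were 2.65% and 8.18% in sham and 0.0726% and 0.533% in IR, 116 genes were higher against Lpl/Gdf15 macrophages, and Ccl17 and Rgs5 between libraries went to 0. With at most 2500 genes per cell, members were 2.16% of IR C1q macrophages, 77 genes were higher against Lpl/Gdf15 macrophages and 138 between libraries, Chil3 turned to 0.94 against ISG-low and Slpi to -0.59 against Lyve1/Folr2/Timd4 macrophages, and Vegfa and Znrf2 against Lpl/Gdf15 macrophages went to 0. With cells thinned to 2000 UMIs before the criteria, members were 6.78% of sham barcodes, 20 genes were higher and 292 lower against Lpl/Gdf15 macrophages, and 44 higher and 319 lower between libraries. Under that thinning Myh11 turned to 0.32 against ISG-low and 0.64 against Lyve1/Folr2/Timd4 macrophages and Saa3 to -1.15 against the latter, Dkc1, Slc25a11, Apex1 and Znrf2 against Lpl/Gdf15 macrophages and Ppfia4, Nucb1, Rgs5 and Cnp between libraries went to 0, and between libraries Plac8 turned to 0.58 and the interferon-stimulated median to -0.72.

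With the highest doublet scores removed, members were 20.2% of sham C1q macrophages. Without cells with smooth-muscle genes, chosen after seeing the data, Myh11, Tagln, Myl9 and Acta2 turned to 0.67, 0.28, 0.50 and 0.26 against ISG-low macrophages and Myh11 to 0.26 against Lyve1/Folr2/Timd4 macrophages, and without cells with monocyte genes Chil3 turned to 0.60. Scaled to a median log2 ratio of 0, 268 genes were higher and 482 lower against Lpl/Gdf15 macrophages, and 422 higher and 554 lower between libraries. With a floor of 50 CPM and 50 UMIs, 47 genes were lower against ISG-low macrophages, 166 higher and 158 lower against Lyve1/Folr2/Timd4 macrophages, 56 higher and 347 lower against Lpl/Gdf15 macrophages, and 114 higher and 508 lower between libraries, where the interferon-stimulated median turned to -0.23. Without a CPM floor, 357 genes were higher and 445 lower against ISG-low and 505 and 585 against Lyve1/Folr2/Timd4 macrophages. An Ifnb1 UMI was found in 9.92% of sham members at 2000 UMIs and 12.4% without thinning. Except where a setting compares fewer cells or genes by construction, the cause of these moves was not tested.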

Other observations

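The interferon-stimulated sum was high outside macrophages in the sham library. It was 33681 CPM in 544 sham monocytes and 10038 CPM in 1115 IR monocytes, 31645 CPM in 213 sham neutrophils and 8218 CPM in 1801 IR neutrophils, and 23877 CPM in 281 sham endothelial cells and 6992 CPM in 101 IR endothelial cells. In Lyve1/Folr2/Timd4 macrophages it was 25865 CPM in sham and 10793 CPM in IR. With 1 library in each group, a difference between animals, suspensions or library preparations cannot be told apart from one between operations.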
